A study of Canis lupus familiaris with 5 samples.

Results

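Vein carried as an arterial bypass for 24 h was compared with vein taken right after surgical harvest and distension, in single-nucleus RNA sequencing of canine cephalic vein. The comparison rests on 3 of the 5 libraries of the series and on 5054 of its 6868 nuclei: 2705 from the grafted vein, 2108 from distended vein of dog 1 and 241 from distended vein of dog 2. The animals were male mongrel dogs of 25 kg, anaesthetised with sodium pentothal and then isoflurane, and no allele or transgene is named. Distended vein was cannulated and filled by injected saline with papaverine, a vasodilator, and bivalirudin, a direct thrombin inhibitor, with the outflow closed. Harvest and distension together took about 30 minutes, and the segment was snap-frozen. Grafted vein had gone through the same harvest and distension, was sewn end to side onto the carotid artery with the artery between the joins tied off, and was collected 24 h later from dog 1. Bivalirudin was also given systemically before the joins were made. The undistended vein of both dogs (n = 2 libraries) enters below as background. With 1 grafted animal, graft and animal cannot be told apart beyond the distended vein of the same dog, and a difference from distended vein holds time, surgery and arterial flow together.

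A vein moved into the arterial circulation meets higher pressure, faster flow and a wound response. Immediate early genes such as FOS and JUN are switched on within minutes of handling and encode short-lived transcription factors, while cytokines and adhesion molecules are made over hours by activated endothelium and by arriving leukocytes. Fibroblasts of the outer coat and smooth muscle cells of the middle coat are known to loosen their matrix, divide and migrate in the weeks that follow grafting.

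The libraries were of unlike depth. After removal of features that name no gene and of 4 dominant features, the graft had 10899093 UMIs (unique molecular identifiers, counted transcripts), distended dog 1 held 1497654 and distended dog 2 held 279555. The median nucleus had 1559, 441 and 431 detected genes. Ribosomal protein transcripts took 5.92% of UMIs in the graft, 0.515% in distended dog 1 and 9.06% in distended dog 2. Library pairs shared between 0 and 3 cell barcodes.

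Distended dog 2 resembled the graft more than it resembled distended dog 1. Across 10643 genes, log2(CPM + 5) of distended dog 2 had a Pearson r of 0.84 with the graft and 0.61 with distended dog 1, whereas distended dog 1 had an r of 0.89 with control dog 2 and 0.55 with the graft. CPM is the count scaled to a common library size by TMM, and these correlations are across genes, which are not independent. With every nucleus thinned to 200 UMIs, distended dog 2 had an r of 0.62 with the graft and 0.53 with distended dog 1. Of 1071 genes at least 4-fold higher in the graft than in distended dog 1, 82.1% lay nearer the graft than distended dog 1 in distended dog 2, and of 805 genes at least 4-fold lower, 76.4% did. Of its nuclei 90 of 241 (37.3%, exact 95% interval 31.2 to 43.8%) fell in 4 clusters drawn mostly from the graft, against 50 of 2108 (2.37%) of distended dog 1. The 151 other nuclei, a part chosen by likeness to the graft and so given as a description, had an r of 0.73 with distended dog 1 and 0.68 with the graft, and lay nearer the graft for 36.4% of the higher and 54.9% of the lower genes that could be read in them. Whether the library was exchanged or mixed with graft material was not tested, and every value set against both distended libraries is subject to that. The library was kept under its label, and list medians, counts of calls and the leading calls are given with and without it.

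**Figure D1:**
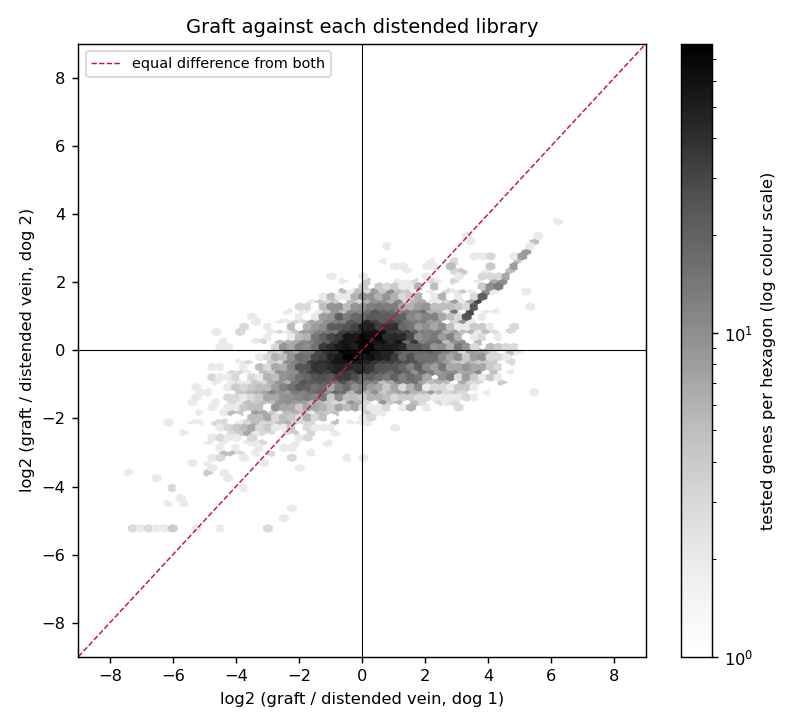
Each tested gene's log2 ratio of graft to distended vein of dog 1 (x axis) and of dog 2 (y axis), as TMM-normalised CPM with counts under 3 set to 3; darker hexagons hold more genes. The cloud is wider along the x axis, many genes far from 0 against dog 1 lie near 0 against dog 2, and the thin oblique streak at the upper right is made of genes set to 3 counts in both distended libraries.

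No gene passed the test in whole-vein sums. With edgeR's quasi-likelihood test over all 5 libraries, 0 of 10643 genes (0.0% called) had an adjusted p under 0.05 (the lowest was 0.998), 407 (3.82%) had an unadjusted p under 0.05, and DESeq2 called 8 genes higher and 17 lower. The graft has no replicate, and the fit takes its spread from the control and distended pairs. Genes are therefore described by where the graft stood against both distended libraries. A gene is said to stand apart when the graft was at least 2 times the higher distended library, or at most 1/2 of the lower one, with counts under 3 set to 3. By that rule 708 genes (6.65%) stood apart above and 686 (6.45%) below. Of the 708, 441 had passed the count filter through the graft alone and so had to lie high there. The median log2 fold change of all genes was -0.02 (0.04 without distended dog 1, 0.09 without distended dog 2). In sums over a whole vein, fewer cells of a type and less RNA per cell cannot be told apart.

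The genes farthest above both distended libraries are given first. TFPI2, a Kunitz-type inhibitor of serine proteases, was at 0.705 CPM in distended dog 1, 10.5 in distended dog 2 and 234 in the graft. PHLDA1, a pleckstrin homology-like protein induced by growth factor signalling, was at 18.3, 35.1 and 532 CPM in the same order. RGS4, which shortens G protein signalling, was at 0.705 and 0 CPM in distended vein, 0 in both controls and 155 in the graft. In none of these 3 genes did the graft overlap any other library. Their log2 fold changes were 6.005 (SE 1.35) for TFPI2, 4.37 (SE 0.88) for PHLDA1 and 7.99 (SE 1.20) for RGS4, each with an edgeR adjusted p of 0.998. TFPI2 and RGS4 had passed the count filter through the graft alone, as had GAP43, SLC30A4, FAM227B, CHRM5, SLC44A3 and INSYN2A below.

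ITGA8, the alpha-8 integrin chain, was at 7.75 and 7.03 CPM in distended vein and 159 in the graft. GAP43, a membrane protein of growing nerve endings and protrusions, was at 3.52 and 3.51 CPM and at 109. SPRED2, an inhibitor of the Ras-ERK cascade, was at 86.7 and 137 CPM and at 906. For each of these the graft was above all 4 other libraries, with controls at 22.9 and 22.2 CPM for ITGA8, 0 for GAP43 and at most 76.3 for SPRED2. Distended dog 2 had 2 counts of ITGA8 and 1 of GAP43. These are too few to tell whether the distended libraries agreed for them. SLC30A4, a zinc exporter, was at 14.1 CPM in both distended libraries and 148 in the graft. MXD1, a MAX partner that opposes MYC, was also at 14.1 CPM in both and 148 in the graft, with control dog 2 at 60.4. PRKCB, a protein kinase C of leukocytes and other cells, was at 4.23 and 7.03 CPM and at 80.3, but control dog 2 was at 118, above the graft.

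FSIP1, named for its link to the fibrous sheath of sperm, was at 9.16 CPM in distended dog 1, 176 in distended dog 2 and 1629 in the graft. MMD, a membrane protein first described in maturing monocytes, was at 4.23, 84.4 and 734 CPM. Both genes were graded, with distended dog 2 between the others. The remaining leading genes were FAM227B, CHRM5 (a muscarinic acetylcholine receptor), SLC44A3 and INSYN2A, with 84.0 to 233 CPM in the graft and at most 15.5 CPM in either distended library. Genes that overlap a neighbour may hold its reads, since the sources do not say whether counting used strand.

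**Figure D2:**
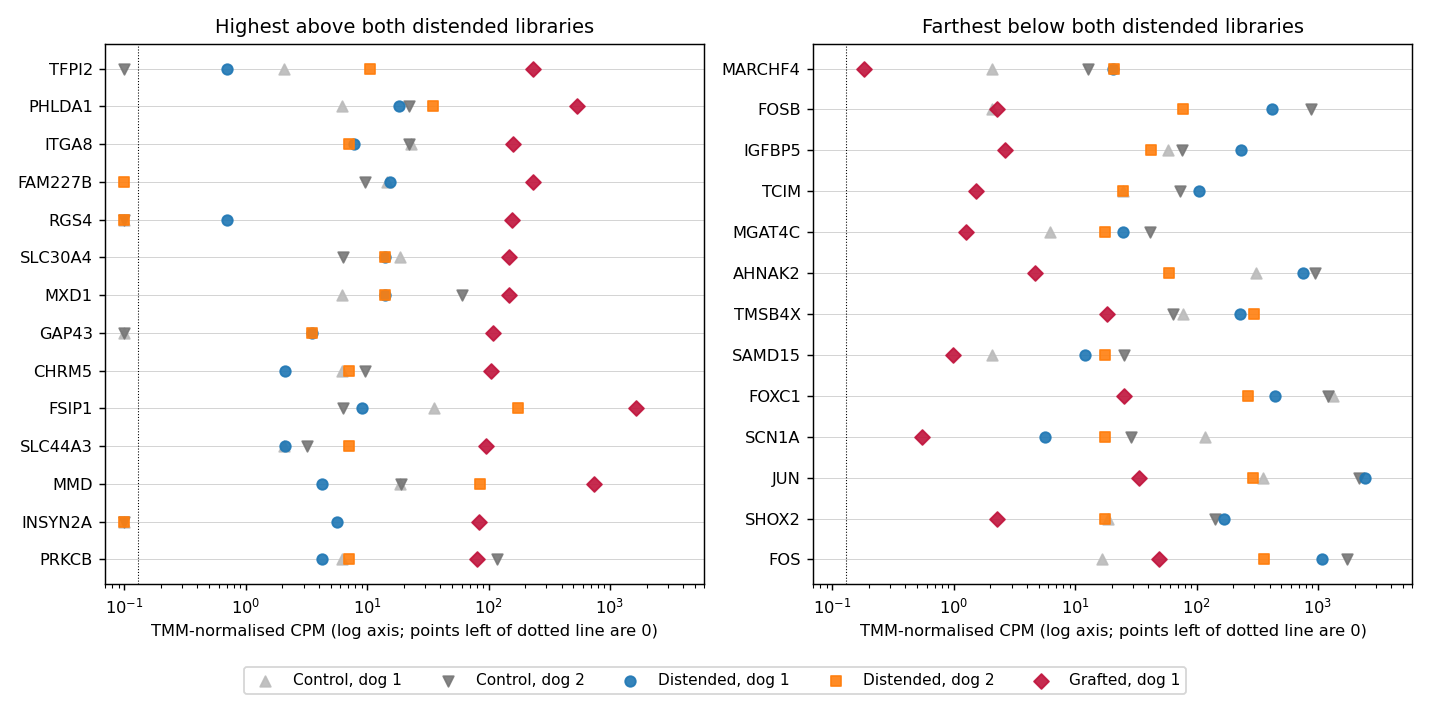
TMM-normalised CPM on a log axis in each of the 5 libraries for the 14 genes standing farthest above (left) and 13 of the 14 farthest below (right) both distended libraries; each point is 1 library and points left of the dotted line are 0. On the left the graft is to the right of both distended libraries by at least 7.62-fold, and control dog 2 exceeds it for PRKCB; on the right the graft is to the left of both, and control dog 1 is also low for FOSB and FOS.

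The genes farthest below both distended libraries included transcription factors, growth factor binding and cytoskeletal genes. IGFBP5, which binds insulin-like growth factors in the matrix, was at 230 CPM in distended dog 1, 42.2 in distended dog 2 and 2.63 in the graft, a log2 fold change of -5.70 (SE 1.38). TMSB4X, thymosin beta 4, which sequesters actin monomers, was at 228 and 295 CPM and at 18.5 (log2 fold change -3.82, SE 0.84). In distended dog 2 its 84 counts came from 15 nuclei, and 90.5% of them from cluster 14, a mostly graft cluster described below. FOXC1, a forkhead factor of vascular development, was at 447 and 264 CPM and at 25.3. The graft was the lowest of the 5 libraries for all 3, with controls at 58.3 and 76.3 CPM for IGFBP5, 77.1 and 63.5 for TMSB4X and 1335 and 1217 for FOXC1. AHNAK2, a giant scaffold protein, was at 751, 59.8 and 4.71 CPM. MARCHF4, a membrane-bound ubiquitin ligase, was at 20.4 and 21.1 CPM and at 0.181, the latter from 2 counts. The distended libraries were close for MARCHF4, from 29 and 6 counts, and differed over 10-fold for AHNAK2. Others were TCIM, MGAT4C, SAMD15, SHOX2 and the sodium channel SCN1A, at 0.543 to 2.26 CPM in the graft.

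Immediate early genes stood apart on the low side. Of 30 tested members 0 stood apart above and 13 below, against 6.65% and 6.45% of all genes, and the median log2 fold change was -1.34 against -0.02 for all genes. JUN was at 2461 CPM in distended dog 1, 292 in distended dog 2 and 33.5 in the graft. FOS was at 1083, 362 and 49.1 CPM, and FOSB at 420, 77.3 and 2.26. The graft lay below both distended libraries for these AP-1 subunits. The controls were wide apart, with control dog 1 at 350, 16.7 and 2.08 CPM for JUN, FOS and FOSB, below the graft for FOS and FOSB, and control dog 2 at 2170, 1747 and 871. EGR1, a zinc-finger factor, was at 1139 and 127 CPM and at 30.0 in the graft. NR4A2, an orphan nuclear receptor, was at 596 and 218 CPM and at 39.8, and MYC at 157 and 102 and at 19.6. The list's median was -1.72 against distended dog 1 and -0.70 against distended dog 2, and in the fit it became -0.59 on leaving out distended dog 1 and -1.70 on leaving out distended dog 2.

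Cytokine genes under NF-kB that stood apart were mostly above. Of 24 tested members 9 stood apart above and 1 below, against 6.65% and 6.45% of all genes. The median was 0.98, with 0.895 when distended dog 1 and 0.93 when distended dog 2 was left out. CCL2, which draws monocytes, was at 52.2 and 73.8 CPM in distended vein and 383 in the graft (log2 fold change 2.62, SE 0.82), with controls at 27.1 and 85.8. CSF3, the neutrophil growth factor G-CSF, was at 44.4, 257 and 986 CPM, CXCL8, a neutrophil chemokine, at 24.0, 105 and 313, and IL6 at 14.8, 102 and 300. For the last 3, distended dog 2 was between distended dog 1 and the graft, control dog 1 was at 0, and control dog 2 was at 130, 63.5 and 105 CPM. PTGS2, the inducible cyclooxygenase, was at 62.0, 197 and 561 CPM, below control dog 2 at 604. CXCL12, a chemokine made by resting stroma, was the member standing apart below, at 69.1 and 45.7 CPM and at 17.0.

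Of 19 tested leukocyte adhesion genes 6 stood apart above and 0 below, against 6.65% and 6.45% of all genes. The median was 0.13 (0.29 without distended dog 1, 0.196 without distended dog 2). SELE, the endothelial selectin E, was at 43.0, 130 and 630 CPM, with control dog 2 at 562. The integrin chains of myeloid cells ITGAM (7.75, 10.5 and 40.8 CPM) and ITGB2 (2.82, 3.51 and 23.9 CPM) also stood apart. ICAM1 (252, 211 and 240 CPM) and VCAM1 (28.9, 38.7 and 35.05 CPM), the endothelial ligands of leukocyte integrins, had the graft between the distended libraries. Markers of neutrophils moved with these values. All 8 of the tested neutrophil markers were above both distended libraries, where 32.0% of all genes were, and the summed level of the 13 measured markers was 74.0 CPM in distended dog 1, 250 in distended dog 2, 497 in the graft, 27.1 in control dog 1 and 1315 in control dog 2. Their part in the adhesion and cytokine values was not tested.

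Coagulation and angiogenic genes that stood apart were mostly above. Beside the list counts given here, 6.65% of all genes stood apart above and 6.45% below. PLAUR, the urokinase receptor, was at 16.9 and 31.6 CPM and at 166. MYO10, an unconventional myosin of filopodia, was at 39.5, 134 and 514 CPM. The graft was above all 4 other libraries for both genes. F8, clotting factor VIII, was at 152 and 45.7 CPM and at 19.7, below both controls at 419 and 219. In all, 4 of 18 coagulation genes stood apart above and 1 below, with a median of 0.13 that became 0.31 on leaving out distended dog 1 and 0.89 on leaving out distended dog 2. Of 30 angiogenic genes 6 stood apart above and 1 below, with a median of 0.31 (0.27 and 0.41). ANGPT2, the destabilising angiopoietin, was at 53.6, 14.1 and 117 CPM, while DLL4, a Notch ligand of tip and arterial cells, was at 30.3, 31.6 and 6.34. Of 30 flow-responsive endothelial genes 2 stood apart above and 8 below, with a median of -0.54 (-0.18 without distended dog 1, -0.502 without distended dog 2). Among those below were KLF4, a factor with an anti-inflammatory role in endothelium (1792, 151 and 38.5 CPM), the receptor NOTCH1 (142, 94.9 and 37.9 CPM), the venous fate factor NR2F2 (215, 204 and 61.1 CPM) and BMP4 (113, 59.8 and 23.7 CPM).

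Feedback genes of growth factor and G protein signalling stood apart in both directions, 6 above and 7 below of 35, against 6.65% and 6.45% of all genes. The median was 0.16, or 0.56 without distended dog 1, 0.03 without distended dog 2 and -0.01 with dog as a block. Beside PHLDA1, SPRED2 and RGS4, those above were RGS2 (41.6, 137 and 318 CPM), RGS16 (3.52, 0 and 46.0 CPM) and the fibroblast growth factor FGF7 (77.5, 112 and 283 CPM). Beside IGFBP5, those below included IGFBP3 (38.8, 31.6 and 6.43 CPM), IGF1 (80.4, 3.51 and 1.72 CPM, the middle value from 1 count) and the cytokine signalling suppressor SOCS2 (26.1, 17.6 and 4.89 CPM). IGFBP5, IGFBP3 and IGF1 were at their lowest level in the graft among the 3 libraries. The list also holds the binding proteins IGFBP4, IGFBP6 and IGFBP7, whose levels are not reported here, so nothing is said of the family. Of 42 TGF-beta family genes 2 stood apart above and 3 below, near the 6.65% and 6.45% of all genes, with a median of 0.23 (0.46 without distended dog 1, 0.24 without distended dog 2). BMP2, a bone morphogenetic protein, was at 12.7, 24.6 and 84.7 CPM, and FST, which binds activin, at 15.5, 21.1 and 2.81.

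Stress genes depended on the distended library. Beside the list counts given here, 6.65% of all genes stood apart above and 6.45% below. Metallothionein MT1E, which binds zinc and copper, had 803 counts in the graft and 0 in both distended and both control libraries, at least 41.3-fold higher than a floor of 3 counts over the distended group. MT1E had passed the count filter through the graft alone, and so had to lie high there. MT2A was at 2.11 CPM in distended dog 1, 183 in distended dog 2 and 639 in the graft, and the zinc importer SLC39A14 at 26.1, 116 and 514. The metal and oxidative stress list (22 tested, 4 above, 1 below, median 0.38) had a median of 2.14 against distended dog 1 and -0.01 against distended dog 2 (0.0141 in the fit without distended dog 1, 2.15 without distended dog 2). For the unfolded protein and heat shock list (35 tested, 3 above, 1 below, median 0.26) these were 1.42 and -0.10 (-0.02 and 1.42 in the fits). MANF, a secreted factor of endoplasmic reticulum stress, was at 19.0, 172 and 382 CPM and SDF2L1, an endoplasmic reticulum chaperone component, at 3.52, 59.8 and 146. HSPA8, the constitutive heat shock cognate, was at 142, 250 and 41.9 CPM, lowest of the 3 in the graft. Of its 71 counts in distended dog 2, 71.8% came from cluster 14, a mostly graft cluster described below.

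Cell cycle and glycolysis genes showed the same dependence. Here too the share of all genes standing apart was 6.65% above and 6.45% below. The cell cycle list (40 tested, 4 above, 1 below, median 0.50) had a median of 1.83 against distended dog 1 and -0.03 against distended dog 2 (-0.0530 in the fit without distended dog 1, 1.84 without distended dog 2). TYMS, thymidylate synthase, was at 12.7 and 17.6 CPM and at 44.9, and the spindle factor TPX2 at 9.16 and 7.03 and at 25.6, but the proliferation marker MKI67 was at 47.9, 10.5 and 3.62. The hypoxia and glycolysis list (31 tested, 3 above, 0 below, median 0.63) had medians of 0.80 and 0.07 (0.11 and 0.81 in the fits). The glucose transporter SLC2A1 was at 5.64, 7.03 and 41.2 CPM, hexokinase HK2 at 0.705, 3.51 and 26.5, and VEGFA at 31.7, 42.2 and 111. The graft exceeded both distended libraries for each. SLC2A1, HK2, TYMS and TPX2 had passed the count filter through the graft alone, and so had to lie high there. LDHA, lactate dehydrogenase, was at 26.1 CPM in distended dog 1, 316 in distended dog 2 and 296 in the graft, so the graft lay between the distended libraries.

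Matrix and contractile genes had medians below 0. Of 44 collagen and matrix genes 1 stood apart above and 5 below (median -0.87), and of 28 contractile genes 1 above and 1 below (median -0.97). Of all genes 6.65% stood apart above and 6.45% below. Tenascin TNC, a matrix protein of injured vessels, was the matrix gene standing apart above, at 51.5 and 31.6 CPM in distended vein and 288 in the graft (log2 fold change 2.76, SE 0.83), with controls at 181 and 60.4. COL6A1 was at 402, 45.7 and 16.5 CPM, COL1A1 at 556, 28.1 and 13.9, and MYH11, smooth muscle myosin, at 254, 17.6 and 6.61. In these 3 genes the graft was under 0.5 of distended dog 2, and the gap to distended dog 1 was wider. ADAMTS5, an aggrecan-cleaving protease, was at 285, 59.8 and 10.1 CPM. Among 29 matrix proteases and inhibitors 1 stood apart above and 3 below (median -0.48). Without distended dog 1 the medians were 0.07 for collagen and matrix, 0.30 for contractile and 0.497 for protease genes, and without distended dog 2 they were -1.34, -1.42 and -0.48.

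Interferon response genes (28 tested) stood apart above in 1 case and below in 5, against 6.65% and 6.45% of all genes. The median of -0.80 moved to -0.02 over 25 members when distended dog 1 was left out. It was -1.13 over the 28 when distended dog 2 was left out. In thinned nuclei the median was -0.29 over the 11 members tested there, so it is not over the same genes. PARP9 and its partner DTX3L, which modify the antiviral response, were at 29.6, 21.1 and 5.16 CPM and at 39.5, 24.6 and 6.07. The viral RNA sensor listed as DDX58 was at 56.4, 38.7 and 15.7 CPM. DLA88, a class I antigen-presenting gene with near-identical copies whose reads may be split between them, was at 69.1, 7.03 and 272 CPM, and control dog 1 at 577. Of 32 actin and protrusion genes 2 stood apart above and 2 below, near the 6.65% and 6.45% of all genes, with a median of 0.37 that became 0.03 on leaving out distended dog 1 and 0.40 on leaving out distended dog 2.

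**Figure D3:**
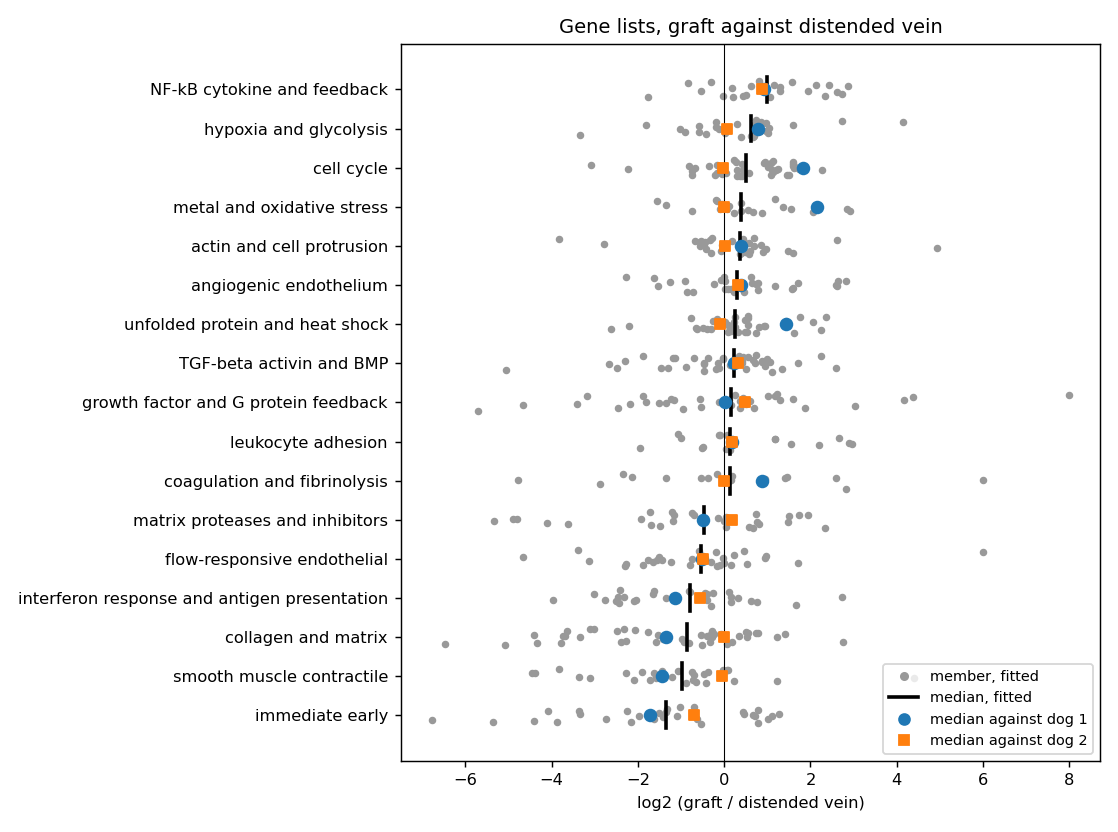
Log2 fold change of graft over distended vein for the tested members of the 17 gene lists (grey points, edgeR; members with 0 counts in both distended libraries are not drawn), with the list's median (black bar) and its median against distended dog 1 (blue circles) and distended dog 2 (orange squares). NF-kB and immediate early medians lie on 1 side of 0 against both dogs, while the metal stress and cell cycle medians are near 2 against dog 1 and near 0 against dog 2.

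Cell type markers also differed. The summed level of 14 fibroblast markers was 8071 CPM in distended dog 1, 963 in distended dog 2 and 859 in the graft, with 848 and 4172 in the controls, and the median log2 fold change of the 13 tested was -3.63. Summed smooth muscle markers were at 727, 91.4 and 122 CPM, and lymphatic endothelial markers at 1565, 278 and 322. Endothelial markers were nearer to each other, at 5508, 5061 and 4632 CPM. Red cell markers were near 0 (1.41, 0 and 3.08 CPM), platelet markers at 9.16, 0 and 4.80 CPM, and T and NK cell markers at 16.9, 14.1 and 44.9 CPM. Pericyte markers were at 245, 42.2 and 22.8 CPM and macrophage or monocyte markers at 765, 235 and 237. Markers of the labelled endothelial, smooth muscle, fibroblast and myeloid cells thus had UMIs in all 3 libraries, though free transcripts can add to these and distended dog 2 had few nuclei named for smooth muscle or macrophages. The part of the fibroblast and smooth muscle marker levels in the matrix and contractile values was not tested.

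Nuclei of the 5 libraries were clustered together, and 15 clusters were named from marker lists where at least 3 markers defined them. Endothelial-like nuclei made up 35.2% of the graft (exact 95% interval 33.4 to 37.1%), 24.8% of distended dog 1 (22.9 to 26.7%) and 17.8% of distended dog 2 (13.2 to 23.3%). At a coarser clustering (resolution 0.4 in place of 0.8) the order turned, since 2 of 2705 graft nuclei were then endothelial-like, against 26.3% and 6.22% of the distended libraries. The shares leave out cluster 6, which had 8 of 14 endothelial markers. It stayed unnamed because its leading genes held a marker of another list. Cluster 6 had 32 nuclei of the graft, 74 of distended dog 1 and 23 of distended dog 2. Fibroblast-like nuclei made up 30.0%, 57.4% and 20.3%, so the graft lay between the distended libraries. Smooth muscle-like nuclei were 1.33%, 2.09% and 0.83%, and lymphatic endothelial-like nuclei 2.62%, 7.26% and 0.83%. Macrophage or monocyte-like nuclei, a cluster with CD163, MRC1 and TIMD4, were 1 of 2705 in the graft (0.037%), 61 of 2108 in distended dog 1 (2.89%) and 0 of 241 in distended dog 2, where the exact upper bound was 1.52%. That share covers the named cluster only. At resolution 1.5 a cluster left unnamed held 223 graft nuclei and 11 of 13 macrophage markers, with CD163, MRC1 and TIMD4 among them. These intervals cover counting error only, and with 1 grafted library the shares have no test.

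The same class was filled by different clusters in graft and distended dog 1. Graft endothelial-like nuclei lay in cluster 12 (951 of 953), which held 8 nuclei of distended dog 1 and 31 of distended dog 2, whereas distended dog 1 had 345 of its 522 in cluster 3 and 92 in cluster 1. Graft fibroblast-like nuclei lay in cluster 9 (806 of 812), with 1 nucleus of distended dog 1 and 42 of distended dog 2, against 643 and 567 of distended dog 1 in clusters 4 and 5. With 1 grafted library, a cluster made mostly of it may be that library and not a cell state. A further 832 graft nuclei (30.8%) stayed unnamed, against 5.55% of distended dog 1 and 60.2% of distended dog 2. Cluster 8, with 501 graft nuclei, was led by leukocyte genes such as NFAM1, CCR1 and IKZF1 and had 13 neutrophil and 12 macrophage markers, too close to name. Cluster 14, with 242 graft nuclei and 10 of distended dog 2, was led by NPPC (C-type natriuretic peptide), NME1, NOP10 and RPL15. Cluster 7 held 105 of the 241 nuclei of distended dog 2 and was led by HBM and SOX6 with heat shock genes DNAJB1 and HSPH1; in distended dog 2 the red cell markers summed to 0 CPM, and the cluster stayed unnamed.

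**Figure D4:**
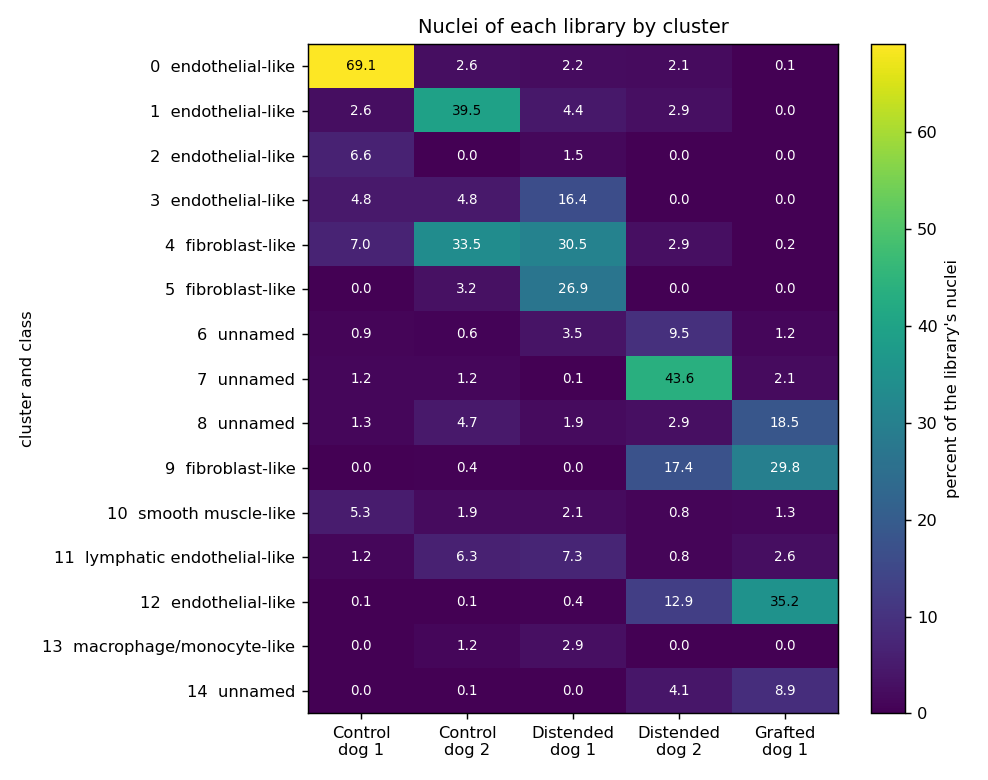
Percentage of each library's nuclei (columns) in each of the 15 clusters (rows, with their class), printed in the cells and shown by colour. The graft's nuclei sit mainly in clusters 8, 9, 12 and 14, which hold few nuclei of distended dog 1, and distended dog 2 has nuclei in clusters 9, 12 and 14 and most in cluster 7.

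The genes standing apart above lay in different clusters of the graft. Cluster 9, the fibroblast-like cluster, held 16.0% of the graft's UMIs but 84.7% of those of FAM227B, 84.5% of GAP43, 79.2% of HK2, 74.4% of SPRED2, 72.2% of TFPI2 and 66.9% of VEGFA. Cluster 12, endothelial-like, held 40.3% of UMIs but 82.5% of ITGA8, 79.9% of SLC44A3, 69.8% of CHRM5, 65.6% of SLC30A4 and 59.5% of RGS4. The unnamed cluster 14 held 29.2% of UMIs in 242 of 2705 nuclei, and 93.4% of those of SDF2L1, 91.0% of MANF, 78.3% of MT2A, 77.8% of CCL2 and 74.1% of MT1E. The leukocyte-led cluster 8 held 11.4% of UMIs and 82.9% of those of PRKCB, 74.7% of ITGAM, 72.3% of ITGB2, 72.2% of MXD1 and 54.9% of PLAUR. TNC was in smooth muscle-like nuclei for 63.7% of its UMIs, in a class with 0.66% of all graft UMIs. GAP43 and FAM227B are among the 10 leading genes of cluster 9 and ITGA8 of cluster 12, so their placement was used in defining those clusters. SELE was split, with 44.2% in cluster 12 and 50.2% in cluster 14, and CXCL8 was highest in cluster 8 at 44.2%. Free transcripts in droplets were not corrected for.

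Sums over endothelial-like nuclei, at the clustering resolution of 0.8, gave genes that passed the test. Of 9819 genes, 52 rose in the graft (0.53%) and 8 fell (0.0815%) by edgeR's quasi-likelihood test, and 41 of the 52 carry no gene symbol. Of the 52, 40 had passed the count filter through the graft alone and 36 had under 3 counts in both distended libraries, so their calls are given as a description. PHLDA1 was among the 40, with 3 counts in distended dog 1 (7.29 CPM), 1 in distended dog 2 (11.3 CPM) and 2240 in the graft (538 CPM). RGS4, also among them, had 0 counts in all 4 other libraries and 1016 in the graft, at least 40.4-fold higher than a floor of 3 counts over the distended group. NTAQ1 (1, 0 and 1094 counts), a glutamine amidase acting on protein N-termini, RUNX1 (1, 1 and 735 counts), a transcription factor of blood and vessel development, and MT2A (3, 1 and 969 counts) were of the same kind. Outside the 40, FSIP1 was at 9.72 and 113 CPM and at 1492 (log2 fold change 4.90, SE 1.12, edgeR adjusted p = 0.032). SLC30A4 was at 17.0 and 22.7 CPM and at 258 (log2 fold change 3.78, SE 0.88, edgeR adjusted p = 0.035). Its 22.7 CPM in distended dog 2, the highest level outside the graft, stood for 2 counts. The place of SLC30A4 outside the 40 rests on those 2 counts, so its call too is a description. Among those that fell, AHNAK2 was at 294, 11.3 and 3.12 CPM (log2 fold change -5.69, SE 1.27, edgeR adjusted p = 0.028) and IGFBP5 at 97.2, 11.3 and 1.20 (-5.58, SE 1.31, edgeR adjusted p = 0.038). The value of 11.3 CPM stands for 1 count, so distended dog 2 adds little for these genes, and 46 of the 52 that rose and 7 of the 8 that fell had under 3 counts there. ITGA8, which rose, and ATP2A3 and ADIRF, which fell, are leading genes of the clusters that make up the class. By the standing apart rule 4.44% of the genes lay above and 5.65% below, among them 5 above and 1 below of 21 NF-kB genes and 1 above and 8 below of 28 immediate early genes. Of the 436 genes above, 97 had passed the count filter through the graft alone and so had to lie high there. The counts above are therefore a description. Of the lists, growth factor feedback had 2 genes that rose and 1 that fell of 30, and metal stress and contractile genes had 1 each that rose, of 21 and 18.

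Sums over fibroblast-like nuclei gave 32 genes that rose (0.558%) and 27 that fell (0.471%) of 5737, again by edgeR. Of the 32, 31 had passed the count filter through the graft alone and 25 had under 3 counts in both distended libraries, so these too are a description. TFPI2 had 1 count in each distended library and 1867 in the graft (1.92, 42.5 and 1479 CPM). HK2 had 0 counts in both and 232 in the graft, at least 34.96-fold higher than the floor. ARG2, the mitochondrial arginase, had 0 and 1 counts and 276 in the graft. Neither HK2 nor ARG2 stood apart in this class. The graft was 1.44 times (HK2) and 1.72 times (ARG2) the level of 3 counts in distended dog 2. There 1 count is worth 42.5 CPM, so the absence of HK2 from that library says little. Those that fell were mostly genes seen in distended dog 1 and scarcely in distended dog 2 or the graft. LIMS2, an adaptor at focal adhesions, had 191 counts in distended dog 1, 0 in distended dog 2 and 0 in the graft, at least 141-fold lower (edgeR adjusted p = 0.012). PODN, a small leucine-rich proteoglycan, had 166, 0 and 1, and the secreted semaphorin SEMA3B 265, 0 and 1. RTP4 (215, 0 and 1 counts), a protein induced by interferon, and KRT7 (76, 0 and 0 counts), a keratin, had the same pattern. Control dog 2 was above distended dog 1 for LIMS2 (378 against 367 CPM), PODN (456 against 319) and SEMA3B (939 against 509). It was below for RTP4 (0 against 413 CPM) and KRT7 (91.3 against 146). Control dog 1 had 1 or 2 counts of each. All 32 genes that rose and 25 of the 27 that fell had under 3 counts in distended dog 2. GAP43 and FAM227B, which rose, and C7, COL28A1, TRPM3, FAM180A, KIAA0408 and ALOX15, which fell, are leading genes of the clusters compared. By the standing apart rule 3.56% of the genes lay above and 8.09% below, among them 6 above and 0 below of 19 angiogenic genes and 2 above and 9 below of 39 collagen and matrix genes. Of the 204 genes above, 53 had passed the count filter through the graft alone and so had to lie high there. The counts above are therefore a description. Of the lists, HK2, TFPI2 and GAP43 rose and COL28A1 fell, and 0 of 25 immediate early genes passed, with a median of -2.32 against 0.01 for all genes.

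Neither class kept a call without distended dog 1: the counts were 0 and 0 in endothelial-like and 0 and 0 in fibroblast-like sums. Without distended dog 2, with 1 library on each side and the spread taken from the control pair alone, they were 63 that rose and 54 that fell in endothelial-like sums and 1025 and 782 in fibroblast-like sums. With dog as a block they were 76 and 44, and 74 and 108. These counts are not over the same genes. In endothelial-like sums 8093 genes were tested without distended dog 1, 9208 without distended dog 2 and 9819 with both. In fibroblast-like sums these were 3136, 9362 and 5737.

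Whole-vein sums without distended dog 2 set 1 grafted library against 1 distended library, with the spread taken from the 2 control libraries alone, and each lone library was assumed to vary as they do. In that fit 190 genes rose (1.52%) and 213 fell (1.7%) of 12532 by edgeR, and 85 of the 190 had passed the count filter through the graft alone, TFPI2 and RGS4 among them. MT2A rose by 8.23 on the log2 scale (SE 1.32, edgeR adjusted p = 0.0031), SDF2L1 by 5.37 (SE 1.15, edgeR adjusted p = 0.013) and MANF by 4.34 (SE 1.06, edgeR adjusted p = 0.025). TIMP1, a metalloproteinase inhibitor, rose as well, at 20.4 CPM in distended dog 1 and 2535 in the graft, with 1307 in the left-out library. KLF4, JUN and FOSB fell, with log2 fold changes of -5.53 (SE 1.56), -6.18 (SE 1.77) and -7.499 (SE 1.96) and edgeR adjusted p of 0.0465, 0.0497 and 0.0327. COL1A1, MYH11, IGF1 and tissue factor F3 fell as well, with log2 fold changes of -5.30, -5.25, -5.502 and -5.74 and edgeR adjusted p between 0.0193 and 0.0292. F3 was at 402 CPM in distended dog 1, 0 in distended dog 2 and 7.43 in the graft, so distended dog 2 was below the graft. By list, 0 of 26 NF-kB genes passed, 1 of 32 immediate early genes rose (FOSL1) and 2 fell, and 0 of 49 collagen and matrix genes rose and 4 fell.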

How the data were processed

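Files deposited by the authors hold unnormalised UMI counts by feature and barcode from frozen-tissue nuclei with 10x 3' chemistry, per the labels' protocols. Cell Ranger 7.0.0 is recorded in their headers and in the submitters' processing notes. Genome build: not given in the sources used here. Free transcripts were not corrected for. Barcodes with 100 or more detected features were kept. Features that name no gene (5.12% of UMIs in distended dog 1, 5.34% in distended dog 2, 0.588% in the graft) and 4 dominant features, LOC119877772 to LOC119877775 (37.8%, 26.5% and 2.98%), were left out.

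Sums per library went into the quasi-likelihood test of edgeR 4.0.16 under R 4.3.3 (TMM, filterByExpr, two-sided, Benjamini-Hochberg adjustment at 0.05), all 5 libraries in the fit. Each group is 1 library per dog, so p-values measure the spread between these libraries only. DESeq2 1.42.0 was an alternative. The fit was also run on simulated counts, and the outcome is not reported here. Nuclei were clustered with scanpy 1.11.5 (2000 variable genes, 20 components, 15 neighbours, resolution 0.8, no integration). A cluster took the name of a list with 3 or more detected markers (3 or more UMIs, 2 times the other clusters) and 1.5 times the markers of the next list; this last limit, and leaving clusters led by heat shock genes unnamed, were set after the data were seen. A cluster whose first 10 genes held more markers of another list than of its own also stayed unnamed. Class sums used libraries with 20 or more nuclei. Scrublet marked 0.408% of nuclei and was taken not to have worked, so doublets stayed in.

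Replicate numbers pair libraries because the titles number the dogs. Across genes, the deviations of same-numbered control and distended libraries had a correlation of -0.34 in whole-vein, -0.066 in endothelial-like and 0.12 in fibroblast-like sums.

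The members and gene lists were chosen with earlier results of these data known. Named genes were the first 14 with a symbol in each direction, by the graft's ratio to the nearer distended library (100 or more graft counts above, 5 or more counts in each distended library below), up to 4 standing apart and up to 2 defining members per list, and the 5 smallest p per direction and class. Leading genes of a cluster were among its first 10 by fold. MYC, EGR1, PTGS2, CXCL12, ICAM1, VCAM1, ANGPT2, NOTCH1, NR2F2, BMP4, RGS2, RGS16, FGF7, IGFBP3, IGF1, SOCS2, LDHA, COL1A1, RUNX1, FSIP1 and SLC30A4 in endothelial-like sums, PODN, SEMA3B, TIMP1, F3 and FOSL1 were chosen after their values were seen. Some genes that met these rules are not reported here.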

Additional observations from a re-analysis of the deposited data

How the results depend on the processing

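The count of called whole-vein genes was 25 with DESeq2, 148 without a filter on low counts and 0 to 403 with a control or distended library left out (2 without distended dog 1, 403 without distended dog 2). Genes standing apart, 708 above and 686 below of 10643 in the main setting, were counted over different numbers of tested genes. In nuclei thinned to 200 UMIs there were 364 above and 539 below of 5885. At 4-fold there were 173 and 162 of 10643. Without distended dog 1 there were 1153 and 1004 of 9656, and without distended dog 2 there were 3588 and 3117 of 12532. With a library left out, class counts ran from 0 to 129 (endothelial-like, rose), 0 to 74 (fell), 0 to 1025 (fibroblast-like, rose) and 0 to 782 (fell), the 0 in each case without distended dog 1. The genes tested changed with the library left out, from 7909 to 9487 in endothelial-like and from 3136 to 9699 in fibroblast-like sums. DESeq2 gave 9 and 18 in endothelial-like and 2 and 29 in fibroblast-like sums.

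With dog as a replicate block, 0 whole-vein genes were called (346 at an unadjusted p under 0.05), 76 rose and 44 fell in endothelial-like sums, and 74 rose and 108 fell in fibroblast-like sums; the leukocyte adhesion median was 0.58. With the crossed pairing, in which the distended libraries were exchanged between dogs and which was added after the data were seen, 0 whole-vein genes were called, 19 rose and 12 fell in endothelial-like sums, and 0 and 0 in fibroblast-like sums.

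List medians without a distended library ran from 0.0141 to 2.15 (metal stress), -0.0530 to 1.84 (cell cycle), -0.48 to 0.50 (proteases) and -1.42 to 0.30 (contractile). The endothelial-like share, graft minus distended, was 13.9 percentage points and -16.2 at clustering resolution 0.4, where 2 of 2705 graft nuclei were endothelial-like and no endothelial-like fit was made. The log2 fold change of USP2 in endothelial-like sums ran from -6.51 without distended dog 2 to 3.35 without distended dog 1, where the direction turned. Of 892 gene values under alternatives in whole-vein sums, 834 kept their side of the threshold and direction and 58 passed it. The main whole-vein fit called 0 genes, so no value there could lose a call. Of 70 such values of called genes in endothelial-like sums, 12 lost the call and 1 changed direction. In fibroblast-like sums 17 of 75 lost it. Removal of doublets was not run. The cause of these shifts was not tested. A count in distended dog 2 is worth 3.51 CPM, which limits genes low there.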
